A study of Mus musculus with 16 samples.

Results

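NRF2 response genes encode the sensor and regulator of the liver's defence against oxidants and electrophiles and several of the enzymes they control. The 9 genes described here are Nfe2l2 and Keap1, which encode NRF2 and its inhibitor, the target genes Nqo1, Gclc, Gclm, Txnrd1 and Srxn1, and the metallothionein genes Mt1 and Mt2. Every DNase hypersensitive site (DHS) that overlapped 1 of these genes, from 20 kb before its start to 20 kb beyond its end, was taken. This gave 45 DHS regions out of 51482 in all, each named below by the distance of its summit from the 5′ end of the gene. Nfe2l2 had 8 of them, Keap1 7, Gclc 8, Gclm 4, Nqo1 2, Txnrd1 9 and Srxn1 1, while Mt1 and Mt2, which lie side by side, shared the same 6.

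DNase-seq maps open chromatin, where DNase I cuts nuclear DNA most readily. Liver nuclei came from male and female mice, with no treatment in the labels, of the inbred strains C57BL/6J (B6), the source of the mouse reference genome, and CAST/EiJ (CAST), derived from wild mice of another subspecies, at 8 weeks of age. Nuclei were digested with 32 U of DNase I and there were 4 libraries in each of the 4 groups, male B6, female B6, male CAST and female CAST. The authors pooled the libraries of a group before calling DHS, so each group is 1 list with no spread between replicates and no test between groups could be made.

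The promoters of the hepatocyte genes Alb, Apoa1, Ttr and Hnf4a were DHS in all 4 lists, and those of Neurod1, Myod1 and Gata1, which mark other tissues, were DHS in none. The promoter of Pax6, which also marks other tissues, was a DHS in male B6 only. The lists held 24888 to 39562 DHS. Whole liver holds several cell types, and more open cells cannot be told apart from more open chromatin in each cell. The female CAST list was the shallowest, with 7.94 background reads at a genome position, against 13.9 to 15.3 in the others. A DHS at that background needed a fold enrichment of 2.24 to be called in CAST females, 2.01 in B6 females, and 1.90 in either male list. These limits hold at the genome background and differ where the local background differs.

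In unstressed cells KEAP1 holds NRF2 in the cytoplasm and hands it to a CUL3 ubiquitin ligase for degradation. Oxidants and electrophiles modify KEAP1, and NRF2 then enters the nucleus, pairs with a small MAF protein and binds antioxidant response elements, whose core is TGACNNNGC. This core can contain the AP-1 site TGACTCA, which FOS and JUN proteins bind. Metallothionein genes are driven mainly by the zinc-sensing factor MTF1 through metal response elements, searched here as TGCACNC and TGCGCNC. The liver is a major site of glutathione synthesis and of metallothionein production.

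The following reference sequences (mm9, B6) were chosen because they lie at the DHS on which the comparisons turn. Each of the first 6 is the highest summit of its DHS with 100 bp on either side, on the strand of the gene, with matches to the antioxidant response element core or the AP-1 site in capitals. The first 2 hold a core within 10 bp of the summit, the third is from a DHS found in B6 lists only, and the other 3 differed between the strains in both sexes. CAST bases were not analysed here.

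Gclc, 3.8 kb upstream (chr9:77598460-77598660, plus strand): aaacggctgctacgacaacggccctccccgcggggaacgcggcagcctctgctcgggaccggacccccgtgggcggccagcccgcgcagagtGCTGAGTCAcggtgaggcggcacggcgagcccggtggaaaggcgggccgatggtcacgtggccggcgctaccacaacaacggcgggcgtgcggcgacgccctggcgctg
Keap1, 10.6 kb upstream (chr9:21054309-21054509, minus strand): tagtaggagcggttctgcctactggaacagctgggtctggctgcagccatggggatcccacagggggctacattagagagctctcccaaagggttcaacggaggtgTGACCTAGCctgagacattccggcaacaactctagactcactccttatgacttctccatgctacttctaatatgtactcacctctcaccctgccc
Gclm, 7.6 kb downstream of the 5′ end (chr3:121955942-121956142, plus strand): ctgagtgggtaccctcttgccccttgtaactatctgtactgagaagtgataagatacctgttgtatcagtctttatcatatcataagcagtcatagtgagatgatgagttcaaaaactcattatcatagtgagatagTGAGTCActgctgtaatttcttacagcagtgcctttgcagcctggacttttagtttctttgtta
Nqo1 promoter (chr8:109927205-109927405, minus strand): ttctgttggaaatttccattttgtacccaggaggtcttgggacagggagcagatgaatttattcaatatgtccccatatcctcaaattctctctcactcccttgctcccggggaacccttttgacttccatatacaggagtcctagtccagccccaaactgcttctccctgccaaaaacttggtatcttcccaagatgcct
Txnrd1, 42.5 kb downstream of the 5′ end (chr10:82339131-82339331, plus strand): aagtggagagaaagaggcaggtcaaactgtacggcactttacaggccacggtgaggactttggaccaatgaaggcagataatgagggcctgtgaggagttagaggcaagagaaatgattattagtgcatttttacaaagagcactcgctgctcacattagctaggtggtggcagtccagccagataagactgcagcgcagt
Gclm, 1.8 kb downstream of the 5′ end (chr3:121950164-121950364, plus strand): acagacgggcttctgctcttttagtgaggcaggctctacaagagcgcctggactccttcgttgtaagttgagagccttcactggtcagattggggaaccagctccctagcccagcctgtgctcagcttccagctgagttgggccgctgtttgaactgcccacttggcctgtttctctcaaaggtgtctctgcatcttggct

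The capitals of the Gclc sequence mark a core on the opposite strand that contains a complete AP-1 site, and those of the Gclm sequence 7.6 kb into the gene mark an AP-1 site without the rest of the core. The last 3 windows hold neither. Of the 12 metal response element matches in the metallothionein promoters, 5 on the plus strand are shown as examples of both spellings, with the match in capitals and 8 bases on either side.

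Mt1, chr8:96702958-96702980: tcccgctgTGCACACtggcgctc
Mt1, chr8:96703001-96703023: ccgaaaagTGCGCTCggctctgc
Mt1, chr8:96703079-96703101: aaacccttTGCGCCCggactcgt
Mt2, chr8:96696287-96696309: atcgcctcTGCACCCggcccctc
Mt2, chr8:96696382-96696404: agacccttTGCGCTCagctcctt

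All 9 genes had a DHS within 2.5 kb of a start site in every list, a property of 44.2% of all 22238 protein-coding genes. The count depended on the threshold, since with only the higher-scoring peaks kept (a −log10 q of at least 15.7) 5 of the 9 genes kept a promoter DHS in all 4 lists, as did 27.6% of all protein-coding genes. The level of each DHS is given as fold enrichment, the ratio of overlapping fragments at the summit to the peak caller's local background. Each level comes with a 95% Poisson interval of the summit count. The interval covers counting error only and not differences between mice.

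The DHS covering a start site of the 9 genes ranged in male B6 from a fold enrichment of 3.54 at Gclc to 8.77 at Srxn1. In the plot of promoter fold enrichment, the highest was Srxn1 in every list except female CAST, where it was Nfe2l2, and in each list its interval overlapped that of the next promoter. Nfe2l2 lay above Gclm, Keap1, Gclc and Mt2 in every list, Mt1 was second to Srxn1 in male B6, and Nqo1 was the promoter at which the strains were farthest apart.

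**Figure D1:**
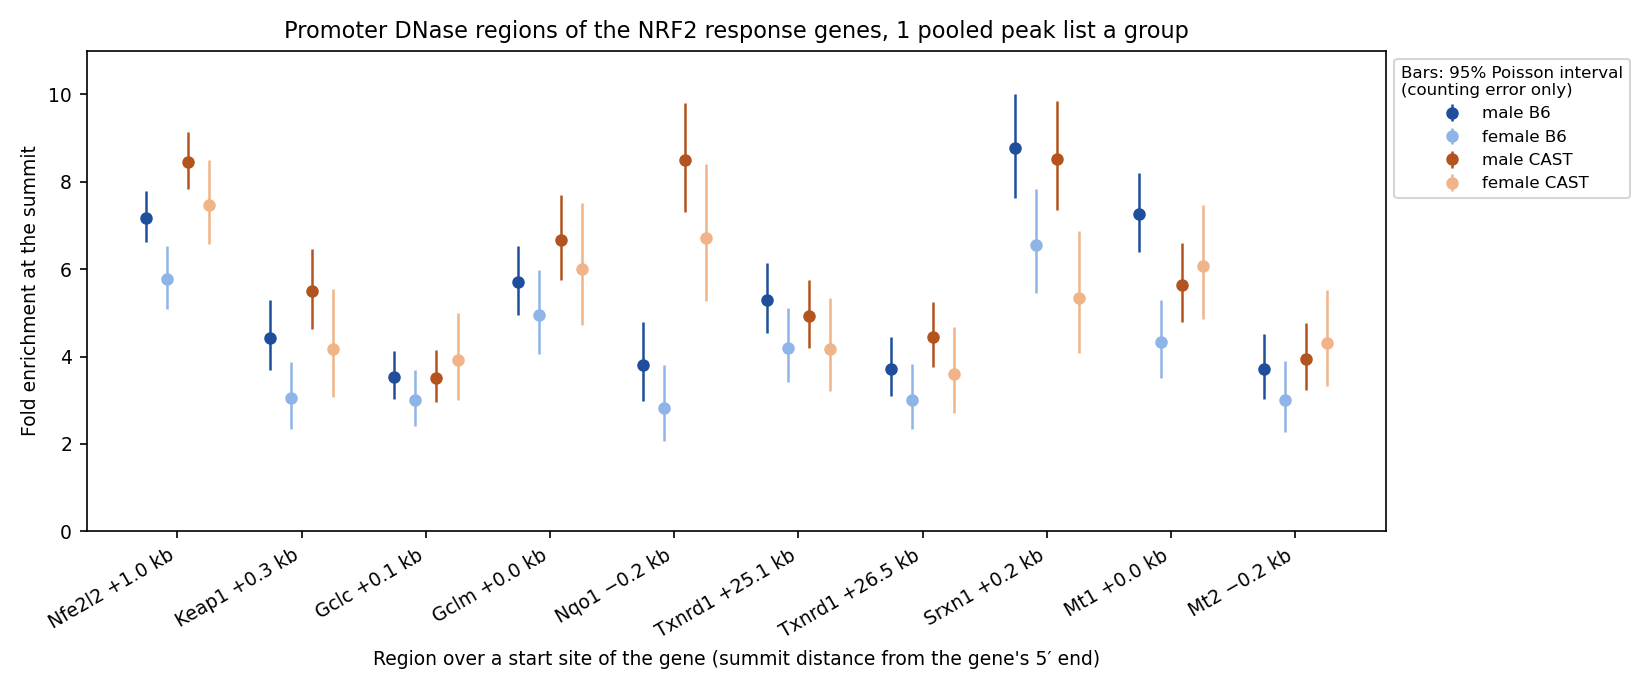
Fold enrichment (y axis, linear, from 0) of the DHS over a start site of each gene (x axis) in the 4 pooled lists, with bars for the 95% Poisson interval of the summit count. Both CAST points lie above both B6 points at the Nqo1 promoter (8.49 and 6.71 against 3.81 and 2.83), and the bars of the strains do not overlap there.

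Nfe2l2 encodes NRF2 itself. Its promoter DHS (chr2:75541466-75543435, minus strand gene) spanned 1970 bp over both annotated start sites of Nfe2l2 and a start site of the neighbouring E030042O20Rik, and its summit lay in an intron, 1.0 kb inside the 5′ end. Fold enrichment there was 7.18 (6.62 to 7.79) in B6 males, 5.77 (5.08 to 6.52) in B6 females, 8.46 (7.83 to 9.13) in CAST males and 7.48 (6.57 to 8.49) in CAST females. It stood at the 86.3 percentile of its list or above and its summits fell within 29 bp of each other, so that the regulator's own promoter was among the more open sites in both sexes and strains. The summit window held 1 metal response element match and no antioxidant response element core, while 2 cores lay elsewhere in the region, 322 and 1240 bp upstream of the summit.

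Upstream of Nfe2l2, nearest to start sites of E030042O20Rik and Gm13656, were 2 intergenic DHS found in all 4 lists. The DHS 11.8 kb upstream had a fold enrichment of 6.53 in B6 males, 5.06 in B6 females, 4.82 in CAST males and 3.76 in CAST females, and it was lower in CAST in both sexes. The DHS 18.4 kb upstream had 3.56, 2.75, 3.72 and 2.68 in the same order and did not separate the strains. The other 4 sites assigned to Nfe2l2 by position were each in 1 list only, at low fold enrichments of 2.2 to 2.68. The strongest DHS in the Nfe2l2 window belonged by position to another gene: 45.5 kb beyond the Nfe2l2 5′ end it covered a start site of Hnrnpa3, which encodes an RNA-binding protein, and its fold enrichment of 8.09 to 11.8 was the highest of all 45 regions in each list.

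Keap1 encodes the NRF2 inhibitor. Its promoter DHS (chr9:21042991-21044037) had a fold enrichment of 4.43 (3.68 to 5.29) in B6 males, 3.05 (2.35 to 3.88) in B6 females, 5.49 (4.63 to 6.47) in CAST males and 4.18 (3.08 to 5.55) in CAST females. In each list it was lower than the Nfe2l2 promoter, and within each strain the male value was the higher, as it was at most regions of these lists. A weak DHS 1.6 kb into Keap1, whose summit lay in a coding exon, was found in both CAST lists and in neither B6 list, at 1.83 (1.35 to 2.42) in males and 2.63 (1.79 to 3.74) in females. The local background there was 25.2 reads in male CAST and 10.4 in female CAST, against 14.2 and 7.94 over the genome. The part of depth and of local background in its absence from the B6 lists was not tested.

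The strongest Keap1 DHS in every list except female B6 lay 10.6 kb upstream, between Keap1 and S1pr5, which encodes a sphingosine-1-phosphate receptor and has the nearer start site, 1073 bp away. It is the site whose printed sequence holds the core TGACCTAGC, 10 bp from the summit. Its fold enrichment was 5.98 (5.04 to 7.04) in male B6, 8.36 (7.39 to 9.42) in male CAST and 6.37 (5.16 to 7.79) in female CAST. In female B6 the region was counted as present only through a weaker neighbouring peak of 2.51 (1.83 to 3.36), whose summit lay 570 bp farther upstream and which did not cover the summit of the other lists. The core at this summit thus lay within a DHS in 3 lists and outside the female B6 peak. A further DHS over a start site of S1pr5, 9.0 kb upstream of Keap1, was in all 4 lists at 2.41 to 3.63. The 10.6 kb site was the only one of the 25 regions in all 4 lists in which a list had no peak over the highest summit, and over all regions in 4 lists 96.0% had every list over it.

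Beyond the 3′ end of Keap1 were 3 DHS near Gm16754. The DHS 14 kb from the Keap1 5′ end, which covered a start site of Gm16754, had a fold enrichment of 2.91 (2.32 to 3.60) in B6 males, 2.45 (1.81 to 3.24) in B6 females, 5.02 (4.26 to 5.88) in CAST males and 4.46 (3.47 to 5.65) in CAST females. Both CAST values were above both B6 values, although the intervals of male B6 and female CAST overlapped. The DHS at 18.5 kb went the other way in males, with 5.31 (4.41 to 6.34) in male B6 and 3.44 (2.73 to 4.28) in male CAST, while the female lists had 3.88 and 3.55. Its summit window held an antioxidant response element core 36 bp from the summit. The third, at 12.1 kb, was missing only from female B6 and had 2.49 to 3.16 in the other lists.

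Gclc and Gclm encode the catalytic and modifier subunits of glutamate-cysteine ligase, which carries out the rate-limiting step of glutathione synthesis. The Gclm promoter had the higher fold enrichment. The Gclm promoter (chr3:121948088-121949339) had a fold enrichment of 5.70 (4.95 to 6.54) in B6 males, 4.95 (4.06 to 5.97) in B6 females, 6.67 (5.75 to 7.69) in CAST males and 6.00 (4.73 to 7.52) in CAST females. The Gclc promoter (chr9:77602014-77602855) had 3.54 (3.02 to 4.13), 3.0 (2.40 to 3.70), 3.51 (2.96 to 4.15) and 3.91 (3.01 to 5.0) in the same order. The 2 intervals did not overlap in male B6, female B6 and male CAST. Local background was higher at Gclc in every list. In male B6 it was 44.5 reads, against 34.8 at Gclm, with 160 and 203 summit reads. The Gclm promoter window held both an antioxidant response element core and a metal response element match, and the Gclc promoter region held none of the motifs searched.

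Gclc instead had its core in an upstream DHS. The DHS 3.8 kb upstream (chr9:77598196-77599179), the first sequence printed above, had a fold enrichment of 4.29 (3.73 to 4.91) in B6 males, 3.62 (2.96 to 4.37) in B6 females, 5.01 (4.35 to 5.76) in CAST males and 3.90 (3.01 to 4.99) in CAST females. Its summits lay within 35 bp of each other in the 4 lists and the core with its AP-1 site lay 4 bp from the highest summit. The level was as high as at the Gclc promoter in female CAST and above it in the other 3 lists, with overlapping intervals in each list except male CAST. A second upstream DHS, 9.5 kb away, was also in all 4 lists at 4.42, 3.34, 4.64 and 4.41, and held an AP-1 site 3 bp from its summit.

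The other Gclc sites were weaker or less shared. An intronic DHS 27.3 kb into the gene was in all 4 lists at 2.67 to 3.49, with summits spread over 469 bp. A DHS 52.5 kb from the 5′ end, beyond the gene, was in both male lists (2.99 in B6, 3.67 in CAST) and in no female list. Finally 3 DHS were in 1 list only: those 7.9 and 1.2 kb upstream in male B6, at 3.09 and 2.36, and the DHS 1.6 kb into the gene in male CAST, at 2.22.

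The Gclm DHS that differed between the strains were intronic and covered no start site, although they lay 1141 and 1963 bp from one and so within the 2.5 kb counted as promoter. The intronic DHS 1.8 kb from the 5′ end (chr3:121949771-121950532) had a fold enrichment of 7.38 (6.54 to 8.31) in male B6 and 4.44 (3.63 to 5.39) in female B6, and of 4.43 (3.71 to 5.25) in male CAST and 3.27 (2.37 to 4.39) in female CAST. Within each sex the B6 value was the higher. The DHS 7.6 kb from the 5′ end (chr3:121955488-121956542) was found in B6 only, at 5.82 (4.86 to 6.92) in males and 3.86 (2.97 to 4.93) in females. It lay in an intron, 1963 bp from the most 3′ of the 3 annotated start sites, spanned 1055 bp over the B6 lists with summits 14 bp apart, and held the AP-1 site printed above 40 bp from the summit. The part of depth and of local background in its absence from the CAST lists was not tested. At the far end of the Gclm window, 28.8 kb from the 5′ end, a DHS over a start site of Dnttip2 had 4.59 in B6 males, 2.30 in B6 females and 5.0 in CAST males and was not called in female CAST.

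Nqo1 encodes a quinone reductase and is among the most used markers of NRF2 activity. It had 1 DHS in all 4 lists, at its promoter (chr8:109926870-109927568, minus strand gene), with the highest summit 0.2 kb upstream of the start. Fold enrichment was 3.81 (2.99 to 4.78) in male B6 and 2.83 (2.06 to 3.80) in female B6. It was 8.49 (7.31 to 9.81) in male CAST and 6.71 (5.28 to 8.41) in female CAST. Both CAST values were above both B6 values and the intervals of the strains did not overlap. The summits of the lists lay within 92 bp. The promoter stood at the 55.8 and 35.6 percentile of fold enrichment in the male and female B6 lists and at the 90.0 and 83.4 percentile in the CAST lists, which is a description, since the lists differ in size and calling limit. The printed window held none of the motifs searched, and no antioxidant response element core was found elsewhere in this DHS. A second site 2.6 kb upstream was in male CAST only, at 2.2, and held a core 180 bp upstream of its summit.

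Txnrd1 encodes the cytosolic thioredoxin reductase, which uses NADPH to keep thioredoxin reduced. Its 9 DHS were the most of any of these genes, spread over 63774 bp of gene and its flanks. No DHS covered the most upstream annotated start site. Instead 2 neighbouring DHS covered the internal start sites. The DHS 25.1 kb from the 5′ end (chr10:82321433-82322466) had a fold enrichment of 5.30, 4.20, 4.93 and 4.18 in male B6, female B6, male CAST and female CAST, and the DHS at 26.5 kb had 3.72, 3.01, 4.45 and 3.59. Neither separated the strains, since their intervals overlapped between B6 and CAST within each sex.

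Farther into Txnrd1, 1 DHS separated the strains in both sexes. The intronic DHS 42.5 kb from the 5′ end (chr10:82338929-82339653) had a fold enrichment of 3.38 (2.64 to 4.25) in B6 males, 2.18 (1.54 to 2.99) in B6 females, 5.95 (5.05 to 6.96) in CAST males and 6.97 (5.58 to 8.60) in CAST females. Both CAST values were above both B6 values and the intervals did not overlap. It stood at the 6.40 percentile of fold enrichment in the female B6 list and the 85.2 percentile in the female CAST list, which differ in size and calling limit. The DHS at 55.7 kb had 5.46 and 4.88 in CAST males and females and 3.51 and 2.86 in B6 males and females. Its intervals overlapped between the strains in females, and after the centring described below its CAST to B6 ratio was 1.47 (1.08 to 2.05) in males and 1.44 (0.956 to 2.17) in females, neither past 1.5-fold.

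The remaining Txnrd1 sites were found in some lists only. The DHS at 14.2 kb was in both male lists, at 2.51 (1.81 to 3.39) in B6 and 5.18 (4.11 to 6.45) in CAST, and in no female list. The DHS at 66.1 kb, just beyond the gene, was in both B6 lists, at 2.92 in males and 3.28 in females, and in no CAST list. The DHS at 34.8 kb was missing only from female B6 and had 2.38 to 3.71 elsewhere, and those 4.6 kb into the gene and 19.7 kb upstream, the latter in an intron of 1700028I16Rik, were in male CAST only, at 2.75 and 2.23.

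Srxn1 encodes sulfiredoxin, which repairs over-oxidized peroxiredoxins. Its window held a single DHS, at the promoter (chr2:151930961-151931890). Fold enrichment was 8.77 (7.64 to 10) in B6 males, 6.56 (5.45 to 7.84) in B6 females, 8.53 (7.35 to 9.84) in CAST males and 5.34 (4.08 to 6.88) in CAST females. The males of the strains had nearly the same level, and in each strain the male value was the higher. The region held a core 140 bp upstream of its highest summit, and AP-1 sites 214 and 271 bp upstream, all outside the summit window.

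Mt1 and Mt2 encode small cysteine-rich proteins that bind zinc, copper and cadmium and react with oxidants. The Mt1 promoter (chr8:96702566-96703465) had a fold enrichment of 7.26 (6.40 to 8.20) in B6 males, 4.33 (3.51 to 5.29) in B6 females, 5.64 (4.79 to 6.59) in CAST males and 6.07 (4.87 to 7.47) in CAST females. The male value was the higher in B6 and the female value in CAST, where the intervals of the sexes overlapped. The Mt2 promoter (chr8:96696067-96697056) was less open, with 3.71 (3.02 to 4.51), 3.0 (2.28 to 3.89), 3.95 (3.23 to 4.77) and 4.32 (3.32 to 5.53), and its intervals overlapped across all lists. A companion DHS 1.2 kb upstream of Mt2 had 4.92, 3.21, 5.67 and 4.95 and was above the Mt2 promoter itself in every list.

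Among the promoter DHS of the 9 genes, these held the most metal response element matches. The Mt1 promoter had 5 matches in its summit window, where 23.4% of all regions within 2.5 kb of a start site had at least 1, and an antioxidant response element core 45 bp from the summit. Of the 5, 1 ended 17 bp before the first annotated start site of Mt1 and the other 4 lay beyond it, and all 5 ended 18 to 139 bp before the second. The Mt2 promoter region had 7 matches, 3 of them upstream of the start site, and a core overlapping an AP-1 site outside the summit window. Downstream of Mt1, the DHS at 4.1 kb held 10 matches, some overlapping, and had a fold enrichment of 3.62, 3.19, 3.34 and 2.82 in all 4 lists. The DHS at 7.7 kb held 4 matches, a core and an AP-1 site, but was among the weakest peaks of its lists, at 1.96, 2.12 and 2.11. Its local background was 25.5, 18.3 and 20.4 reads in the same lists. It was not called in female CAST, and the part of depth in this was not tested. The DHS 7.3 kb upstream of Mt2 was also missing only from female CAST, with 5.01, 2.75 and 4.39 in the other lists.

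**Figure D2:**
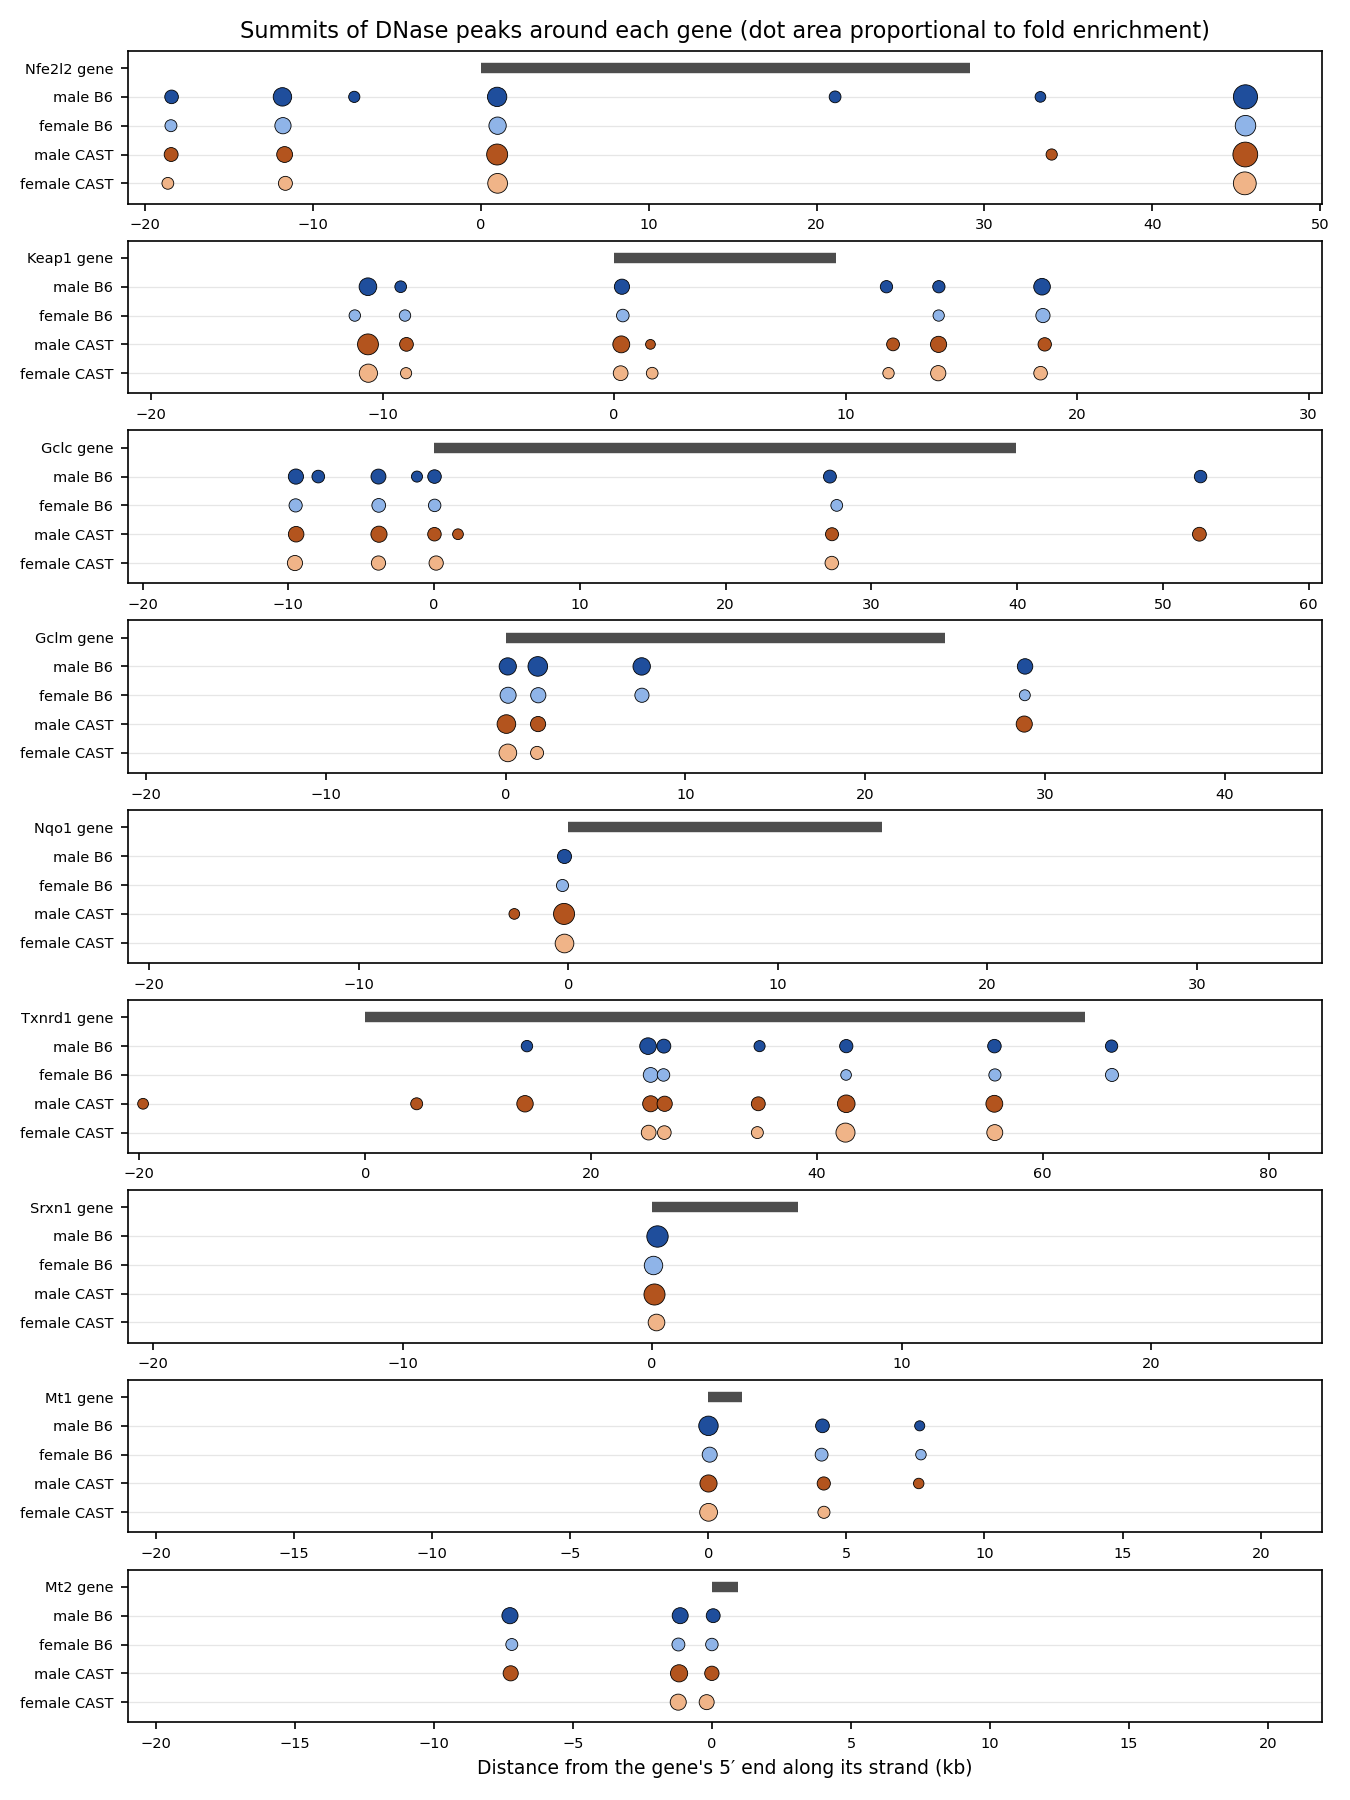
Summits of the DHS peaks of each list (rows) by distance in kb from the 5′ end of the nearest of the 9 genes, along the strand of the gene (x axis), with the gene drawn as a grey bar and the area of each dot proportional to fold enrichment. The Gclm site at 7.6 kb has dots in the B6 rows only, and the Txnrd1 site at 42.5 kb has its larger dots in the CAST rows.

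Across the 45 regions, 25 (55.6%) were in all 4 lists, compared with 35.6% of all regions of the series. This direction did not hold with only the higher-scoring peaks kept, when 7 of 32 member regions (21.9%) and 34.1% of all regions were in all 4 lists. The shares also differed with position. Among regions within 2.5 kb of any start site, 16 of 24 member regions (66.7%) and 59.1% of all such regions were in all 4 lists, and among promoter-distal regions 9 of 21 (42.9%) and 24.0%. Regions found in 1 list only numbered 10 (22.2%), against 35.2% of all regions. Each was in a male list, 5 in male B6 and 5 in male CAST. The male lists were longer (38751 and 39562 peaks, against 26271 and 24888) and had the lower calling limits. The share of male lists among all regions in 1 list was not computed. Male B6 held 39 of the member regions (86.7%, against 74.6% of all regions) and male CAST 38 (84.4%, against 76.2%). Female B6 held 30 (66.7%, against 50.0%) and female CAST 28 (62.2%, against 47.3%).

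Few member regions followed sex or strain by presence alone. Found in both sets of males without a female peak were 2 regions (4.44%, against 9.38% of all regions), the sites of Txnrd1 at 14.2 kb and Gclc at 52.5 kb described above. The reverse, a peak in both sets of females without a male peak, occurred at none, against 0.0622% of all regions. A peak in both sexes of B6 and neither of CAST was found at 2 regions (4.44%, against 3.32%), those of Gclm at 7.6 kb and Txnrd1 at 66.1 kb, and a peak in both sexes of CAST and neither of B6 at 1 (2.22%, against 3.62%), in Keap1 at 1.6 kb. Each of these shares rests on at most 2 regions. The calling limits were higher in the female lists, and the part of this in the missing female peaks was not tested.

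**Figure D3:**
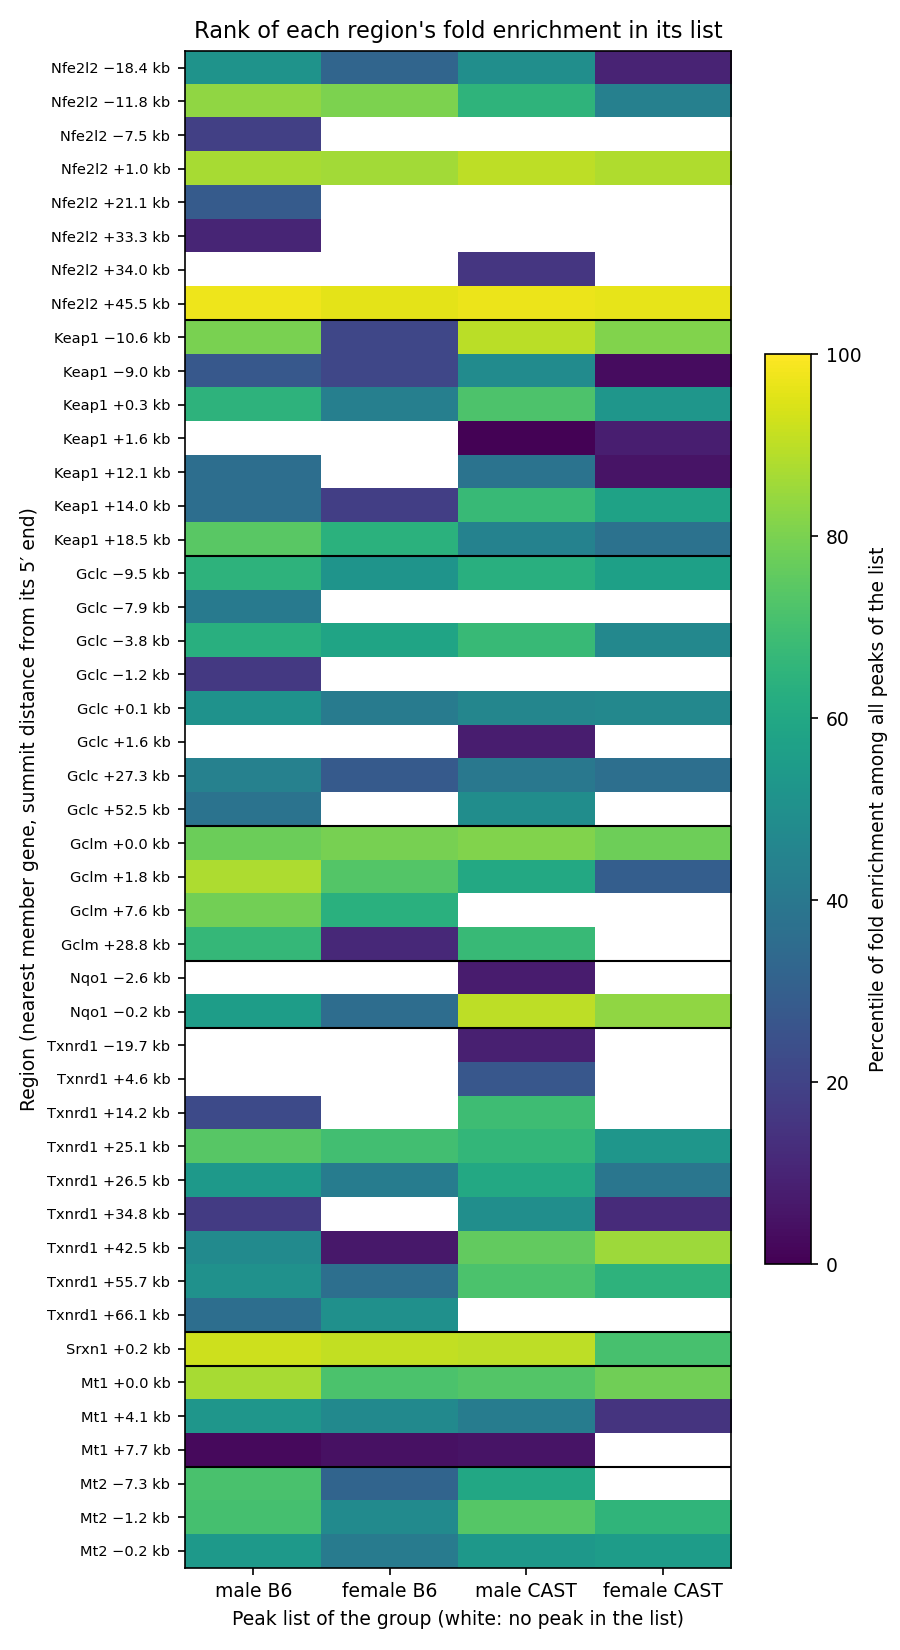
Percentile of fold enrichment among all peaks of the list (colour, 0 to 100) for the 45 regions (rows, grouped by gene) in the 4 lists (columns), with white where a list had no peak. The regions in 1 list only are dark, in the lower part of their list, and the Nqo1 promoter and the Txnrd1 site at 42.5 kb are brighter in the CAST columns.

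To compare levels, the fold enrichment ratio of 2 lists was divided by its median over all regions in both lists, since the lists differed throughout. The median ratio over all regions was 1.32 for male to female in B6, 1.19 for male to female in CAST, 1.06 for CAST to B6 in males and 1.19 for CAST to B6 in females. After this centring the median of the member regions was near 1 in each comparison. It was 0.980 over 30 regions for male to female in B6, 0.992 over 28 in CAST, 1.03 over 32 for CAST to B6 in males and 1.09 over 25 in females.

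Differences in level past 1.5-fold were few between the sexes. In B6, 2 of 30 member regions were past 1.5-fold higher in males, when 2.62% of all regions were, and none was past it in the other direction, when 2.60% were. Centred on the regions in all 4 lists, 1 was higher and 1, the Txnrd1 site at 66.1 kb, was lower, at 0.662 against 0.673. The 2 higher in males were the Keap1 site 10.6 kb upstream, at 1.81 (95% counting interval 1.30 to 2.65), where the peaks of the sexes were different ones, and the Dnttip2 site of the Gclm window, at 1.51 (1.04 to 2.30). Without centring, 8 of the 30 were past 1.5-fold higher in males, when 24.3% of all regions were, and none lower, when 0.0423% were. In CAST none of 28 was past 1.5-fold higher in males, when 3.31% of all regions were, and 1 was lower, when 2.56% were. This was the weak Keap1 site at 1.6 kb, at 0.584 (0.365 to 0.975). Without centring, 2 of the CAST regions were higher in males, when 12.5% of all regions were, and none lower, when 0.395% were.

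The Srxn1 promoter had a centred male to female ratio of 1.01 (0.809 to 1.28) in B6 and 1.34 (1.01 to 1.86) in CAST. The Mt1 promoter had 1.27 (1.01 to 1.64) in B6 and 0.780 (0.599 to 1.03) in CAST. No member region was past 1.5-fold in the same direction in both strains, which 0.426% of the regions in all 4 lists were for higher levels in males and 0.0874% for lower levels. The intervals of the other DHS over start sites of the 9 genes held 1 in both strains.

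More member regions differed between the strains. In males 4 of 32 were past 1.5-fold higher in CAST, when 6.68% of all regions were, and 2 were past it in the direction of B6, when 4.49% were. In females 4 of 25 were higher in CAST, when 4.97% were, and 2 were lower, when 3.42% were. Without centring the counts in males were 6 higher in CAST, when 8.81% of all regions were, and 2 lower, when 3.17% were. In females they were 6 higher, when 15% were, and none lower, when 0.823% were. The comparisons in males and in females use no list in common.

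Of the 25 member regions in all 4 lists, 3 were past 1.5-fold higher in CAST in both sexes (12%, against 2.18% of all such regions) and 1 was past it in the direction of B6 in both (4.0%, against 0.863%). The Nqo1 promoter was 2.11-fold (1.61 to 2.84) higher in CAST in males and 2.00-fold (1.36 to 3.02) in females. The Txnrd1 site at 42.5 kb was 1.67-fold (1.26 to 2.26) higher in CAST in males and 2.69-fold (1.83 to 4.16) in females. The site at the Gm16754 start downstream of Keap1 was 1.64-fold (1.25 to 2.18) and 1.53-fold (1.05 to 2.29) higher. The Gclm site at 1.8 kb had ratios of 0.568 (0.456 to 0.700) in males and 0.619 (0.415 to 0.883) in females. These 4 sites were picked by their ratios in both sexes, so their shared direction is a description. Without centring the Gclm site had a ratio of 0.735 in females and was no longer past 1.5-fold there.

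The other sites past 1.5-fold were past it in 1 sex only. In males the Txnrd1 site at 14.2 kb was 1.96-fold (1.34 to 2.98) higher in CAST and had no female peak, and the Keap1 site at 18.5 kb had a ratio of 0.614 (0.455 to 0.819), with 0.771 (0.504 to 1.16) in females. In females the Keap1 site 10.6 kb upstream was 2.14-fold (1.5 to 3.19) higher in CAST, on different peaks as above, and 1.32-fold (1.08 to 1.64) in males. The Nfe2l2 site 11.8 kb upstream had a ratio of 0.626 (0.402 to 0.920) in females and 0.700 (0.531 to 0.903) in males. Whether these ratios differed between the sexes was not tested. CAST reads were mapped to a CAST version of the genome and converted back to mm9, and the part of this step in the strain differences was not tested.

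**Figure D4:**
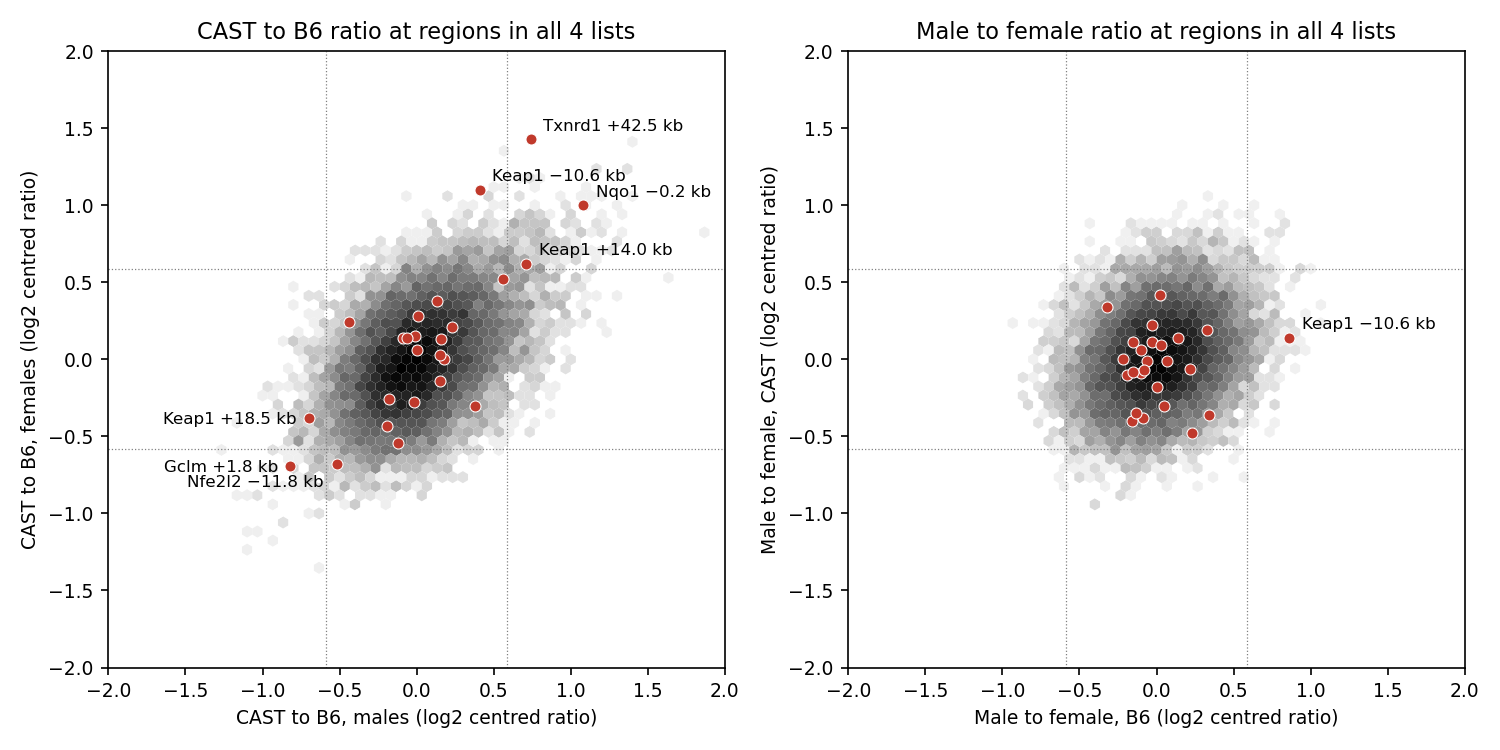
Centred log2 fold enrichment ratios at the regions in all 4 lists, CAST to B6 in males (x axis) and females (y axis) on the left, and male to female in B6 (x axis) and CAST (y axis) on the right, with the member regions in red over all regions in grey (log-scaled density) and dotted lines at 1.5-fold. The Nqo1 promoter and the Txnrd1 site at 42.5 kb lie in the upper right corner of the left panel and the Gclm site at 1.8 kb in the lower left, while in the right panel 1 member, the Keap1 site 10.6 kb upstream, lies past a dotted line.

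Most of the other promoters had CAST to B6 ratios near 1. The centred CAST to B6 ratio was 1.12 (0.997 to 1.25) in males and 1.09 (0.912 to 1.31) in females at the Nfe2l2 promoter, and 1.18 (0.916 to 1.51) and 1.16 (0.769 to 1.71) at the Keap1 promoter. At the Gclm promoter it was 1.11 (0.903 to 1.36) and 1.02 (0.747 to 1.38), and at the Gclc promoter 0.941 (0.743 to 1.19) and 1.10 (0.774 to 1.54). At the Mt2 promoter it was 1.01 (0.758 to 1.34) and 1.21 (0.829 to 1.78). The Mt1 promoter had 0.736 (0.597 to 0.90) in males and 1.18 (0.870 to 1.60) in females, and the Srxn1 promoter 0.921 (0.752 to 1.13) and 0.685 (0.488 to 0.938).

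The shape of the shared member regions was like that of other shared regions. The summits of the 4 lists lay a median of 94.0 bp apart in the 25 member regions in all 4 lists and 91.0 bp apart in all 18309 such regions, and the median width was 863 and 923 bp. The member regions were less enriched than shared regions at large, with a median fold enrichment in male B6 of 4.42, against 5.35. Over all 45 member regions, of which more lay near a start site, the median GC content of the summit windows was 50.2%, against 49.3% for all regions, and the median observed to expected CpG ratio was 0.360, against 0.271. Near a start site the CpG ratio was 0.643 for members and 0.659 for all regions.

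Motif matches were counted within 100 bp of the highest summit, on both strands. The antioxidant response element core was present in 8 of 45 member regions (17.8%), against 9.22% of all regions. By position it was present in 5 of 24 near a start site of any gene (20.8%, against 9.44%) and 3 of 21 promoter-distal ones (14.3%, against 9.12%). Of these 5, only the Gclm and Mt1 promoters were near a start site of the 9 genes. The others were nearest to start sites of Hnrnpa3, S1pr5 and 1700028I16Rik. The AP-1 site was present in 5 (11.1%, against 4.05%) and the metal response element in 8 (17.8%, against 15.1%). Near a start site the metal response element was in 6 of 24 (25%, against 23.4%), and over the whole of these regions in 12 (50.0%, against 57.0%). Within 200 bp of the summit the core was in 16 member regions (35.6%, against 18.4%), and in the whole regions in 18 (40%, against 26.2%). A match is a run of letters and not evidence of binding, and no match says only that the letters are not in the window.

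None of the 4 sites past 1.5-fold between strains in both sexes held a core or an AP-1 site in its summit window. Of the 8 regions that did hold a core, 6 (75%, against 38.3% of all regions with a core) were in all 4 lists: the Gclm, Mt1 and Hnrnpa3 promoters, the Gclc site 3.8 kb upstream, and the Keap1 sites 10.6 kb upstream, where the female B6 peak did not cover the core, and at 18.5 kb. The other 2 were the Mt1 site at 7.7 kb and the male CAST site 19.7 kb upstream of Txnrd1. Over all 45 member regions, with or without a core, the share in all 4 lists was 55.6%, and the 75% rests on 8 regions.

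The wider NRF2 pathway was covered by a list of 62 further genes. Of these, 46 (74.2%, against 44.2% of all protein-coding genes) had a promoter DHS in all 4 lists, 10 in some lists and 6 in none. All 11 partners and regulators had one in every list. The most open were Cul3, the scaffold of the ligase that KEAP1 recruits, with a fold enrichment of 12.6, 8.75, 12.6 and 9.75 in male B6, female B6, male CAST and female CAST, its RING subunit gene Rbx1 with 10.6, 8.69, 12.5 and 11.6, and Gsk3b, which encodes a kinase that marks NRF2 for degradation, with 7.93 to 10.9. The promoters of these 3 genes were more open than that of Nfe2l2 in every list.

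Genes that supply NADPH to these enzymes had a promoter DHS in every list for 6 of 6, led by Taldo1, Idh1 and Tkt. Glutathione and thioredoxin genes did for 11 of 14, led by Gss, which encodes glutathione synthetase, with 10.4, 6.82, 10.9 and 9.41, and by Slc3a2 and Gpx4. Gpx2, a glutathione peroxidase known from the gut, had one in male CAST only, at 2.49, and Slc7a11 and Glrx in no list. The metal group had 3 of 5, Slc39a10, Slc30a1 and Mtf1, and none at Mt3 and Mt4, the metallothioneins of brain and squamous epithelium. Among other antioxidant enzymes, 4 of 5 did, led by Sod2, with 8.98, 7.41, 8.87 and 9.42, and then Cat and Osgin1, while the promoter of Sod3, an extracellular superoxide dismutase, was a DHS in both B6 lists only, at 2.69 and 2.54.

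Of the detoxification and transport genes, 8 of 16 (50.0%, against 44.2% of all protein-coding genes) were open in every list, led by Ugdh, Abcc2 and Gstm1. Of the rest, 6 were open in some lists. Gsta4 (4.05, 3.19 and 3.69) and Aldh1a1 (2.17, 3.16 and 4.29) lacked a promoter DHS in female B6, Gstp1 (5.52, 3.89 and 4.26) and Abcc3 (2.90, 2.35 and 3.91) lacked one in female CAST, Gstm3 had one in the male lists (2.37 and 2.62) and Cbr1 in the B6 lists (1.87 and 1.90). Gsta1 and Akr1b8 had none. Glutathione S-transferase genes have close copies, and reads that did not align uniquely were dropped, so their values are uncertain. Among the iron and heme genes, Blvrb, Ftl1 and Fth1 were open in every list, and Hmox1, which encodes heme oxygenase, had a promoter DHS of 3.84 in B6 males, 3.32 in B6 females and 4.73 in CAST males and none called in female CAST. Slc48a1, a heme transporter gene, had the same pattern with 2.89, 2.28 and 3.83.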

How the data were processed

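Liver DNase-seq libraries of 4 groups were used as the 4 peak lists that the authors deposited, 1 for each sex and strain. The authors aligned uniquely mapping reads with Bowtie2, B6 to mm9 and CAST to mm9 carrying CAST variants, converted CAST coordinates to mm9, pooled the 4 libraries of a group and called peaks with MACS2. The paper describes peaks as signal above input DNA, and the peak lists do not say which background they used. Each deposited peak carries its fold enrichment (a ratio of summit pileup to background), a −log10 p-value, a −log10 q-value and a summit offset. The deposited −log10 p-value and the fold enrichment, with the pseudocount of 1 of MACS2, give back the summit reads and background, and the recovered pileups were within 0.02 of a whole number for at least 99.9% of peaks. Reads per library are not part of the peak lists and are not reported here, and depth is described by the background reads recovered from each list.

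Peaks of the lists overlapping by at least 1 bp were joined, and regions within 20 kb of a member gene in the GENCODE annotation of mm9 were kept. Where a list had several peaks in a region, the peak with the highest fold enrichment was used. Promoter DHS lay within 2.5 kb of a start site. Groups were taken from the library titles. With 1 list per group there is no test. The 95% intervals are exact (Poisson for a level, Clopper-Pearson for a ratio, background taken as known) and cover counting error only, since reads carried no molecular identifiers. A ratio was counted when past 1.5-fold after centring. Joining, recovery of pileups, intervals and motif searches were checked on simulated data. Python 3.11.15, numpy 2.4.6, scipy 1.17.1, pandas 2.3.3 and matplotlib 3.10.9 were used.

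The member genes, the pathway list and the rules were chosen with earlier results of these data known. All members were named. Pathway genes were named when their promoter DHS was missing from some but not all lists, and up to 3 per role by mean percentile of fold enrichment; the 6 genes with none were named after their values were seen. The values of alternative settings stand in the closing section.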

Additional observations from a re-analysis of the deposited data

How the results depend on the processing

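Alternatives were a join at 50% of both peaks, peaks within 500 bp joined, a stricter threshold (−log10 q of at least 15.7), lists of equal size by −log10 q or by fold enrichment (24888 peaks), windows of 10 and 50 kb, a promoter limit of 1 kb, ratios without the pseudocount, not centred, or centred on regions in all 4 lists, and motif windows of 200 bp on either side of the summit or the whole region. Chosen after seeing the data were a count over the 3 lists other than female CAST (28 regions) and ratios over regions whose summits lay within 100 bp. The 45 regions became 80 with the 50 kb window, and the 25 in all 4 lists became 40 with that window and 7 with the stricter threshold. The genes with a promoter DHS in all 4 lists fell from 9 to 5 with the stricter threshold. The 8 regions with an antioxidant response element core became 16 with the wider window and 18 in the whole regions. The other 41 values stayed within 1.5 times the count, or within the median counting interval of a single region's ratio. That interval is a loose limit for a median over many regions. Without centring, the median male to female ratio was 1.29 in B6 and 1.18 in CAST, against 0.980 and 0.992. The median CAST to B6 ratio was then 1.09 in males and 1.30 in females, against 1.03 and 1.09. Of 45 values for single regions past 1.5-fold, 41 stayed past it and 4 did not. Centring on regions in all 4 lists gave 1.49 for male to female in B6 at Gclm+28.8kb. Without centring, CAST male to female was 0.695 at Keap1+1.6kb, and CAST to B6 in females was 0.743 at Nfe2l2-11.8kb and 0.735 at Gclm+1.8kb. None changed direction. Calls gained were 12 without centring and 1 when centred on regions in all 4 lists, at Txnrd1+66.1kb for male to female in B6 (0.662).

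No paired analysis was possible because each group is 1 pooled list, so the replicate numbers of the libraries could not be used, and leaving out each replicate in turn was not possible for the same reason. At the genome background, calling required a fold enrichment of 2.24 in female CAST, the highest of the 4 lists.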
